A study of Caenorhabditis elegans with 14 samples.

Results

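C-type lectins are proteins with a fold that binds sugars or other ligands, in some family members with the help of calcium. Caenorhabditis elegans has a large family of them, named clec, and many are secreted by intestinal or epidermal cells. Several clec genes are known to change when worms meet a pathogen, each pathogen moving its own set, while others encode egg and cuticle matrix proteins or act in neurons. The genes described here are the rows of the count table whose WormBase symbol is clec followed by a number, 237 of 21982 genes. The rule used the name only and no measured value.

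RNA from whole worms was sequenced in 14 libraries of 4 groups. N2, the wild-type strain, was sampled on the laboratory food Escherichia coli OP50 (4 libraries) and on Enterococcus faecalis OG1RF, a Gram-positive bacterium that infects the worm gut (3 libraries). The skpo-1 mutant, strain GF89 with the deletion allele ok1640 on chromosome II, was sampled on E. coli (3 libraries) and on E. faecalis (4 libraries). The gene skpo-1 encodes a peroxidase. All worms went onto their plates at the L4 larval stage, stayed for 16 h and are labelled as adults on day 1. The mutant is 1 strain. According to the methods the E. faecalis was grown on rich BHI agar with gentamycin whereas E. coli was maintained on NG agar, so bacterium and plate medium cannot be told apart.

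Library totals ran from 15174830 to 36682565 estimated counts. Levels are given in CPM, a gene's counts scaled to a library size of 1000000 after correction by trimmed mean of M-values. The skpo-1 transcript was at 283 to 314 CPM in N2 on E. coli, 112 to 199 in N2 on E. faecalis, 2.35 to 2.66 in the mutant on E. coli and 1.62 to 2.26 in the mutant with E. faecalis, as the labels state. Replicate 1 of N2 on E. faecalis often held the lowest value of its group. Of the 26 lectin genes called higher in both genotypes below, 18 had their lowest N2 value on E. faecalis in that library and 5 their highest. The share over all genes is not given here, so this is not shown to be particular to lectin genes. In whole worms, fewer cells of a type and less RNA per cell cannot be told apart.

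Of the 237 lectin genes, 223 had at least 1 count and 14 had none. The filter on low counts left 123 for testing. Among the 114 that were not tested the highest CPM in any library was 2.47, for clec-15. The family lies on chromosomes I (35 genes), II (48), III (14), IV (53), V (84) and X (3). Most members were rare transcripts: 8 had a mean over the 14 libraries of at least 100 CPM, 28 lay between 10 and 100, 51 between 1 and 10, and 136 below 1.

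A few genes carried most of the family's RNA. Per kilobase of coding sequence the highest mean levels were 1458 CPM for clec-87, 1237 for clec-63, 418 for clec-88, 278 for clec-50, 275 for clec-91 and 158 for clec-1. clec-87 and clec-88 encode core proteins of chondroitin proteoglycans, the sugar-decorated proteins of the egg and other matrices, while no role is given here for clec-63. The order of the first pair depended on the bacterium. On E. coli the mean per-kilobase level of clec-87 was 1684 CPM in N2 and 1657 in the mutant, and that of clec-63 was 668 and 547, with no overlap between libraries. On E. faecalis the means were 1131 and 1328 for clec-87 and 2013 and 1741 for clec-63, with every N2 library higher for clec-63 and an overlap in the mutant. The top gene by CPM, clec-63, made up 31.2% of the summed mean CPM of all members, the top 3 made up 58.4% and the top 10 made up 79.3%.

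The summed CPM of all members was 3738 to 5298 in N2 on E. coli, 4805 to 6240 in N2 on E. faecalis, 3780 to 4063 in skpo-1 on E. coli and 4881 to 6197 in skpo-1 on E. faecalis. Without clec-63 the sums were 3050 to 4535, 3010 to 3230, 2988 to 3452 and 3111 to 3541. The full sums were separate by bacterium in the mutant and overlapped in N2, and without clec-63 the ranges of all 4 groups overlapped.

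**Figure D1:**
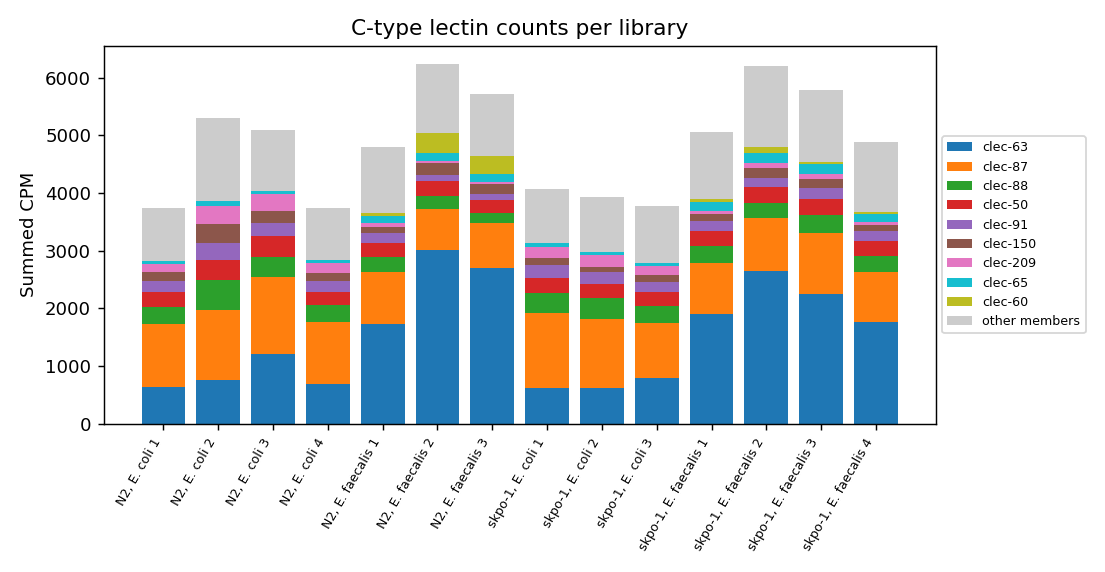
Summed CPM of the 237 C-type lectin genes in each of the 14 libraries, as stacked bars from 0, with the 8 most abundant members and clec-60 in colour and all others in grey. clec-63 grows on E. faecalis in both genotypes, and clec-60 shows as a band on E. faecalis, widest in replicates 2 and 3 of N2 (349 and 305 CPM).

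The first question was which lectin genes change on E. faecalis relative to E. coli. A gene was called when its Benjamini-Hochberg adjusted p from edgeR's quasi-likelihood test over all 15685 genes tested was under 0.05 and its log2 fold change was at least 1 in size. In N2, 41 of the 123 tested lectin genes rose and 12 fell, 43.1% together, against 23.3% of all genes tested. By direction, 33.3% of the lectin genes rose against 19.2% of all genes, and 9.76% fell against 4.10%. In the skpo-1 mutant 32 rose and 11 fell, 35.0% together against 11.8% of all genes, where 10% of all genes rose and 1.76% fell. The median log2 change of the tested lectin genes was 0.45 in N2, where that of all genes was 0.03, and 0.61 in the mutant, where that of all genes was 0.12. The E. faecalis and E. coli libraries did not overlap for 38 lectin genes upwards and 16 downwards in N2, with 37.5% of all genes in either direction, and for 49 and 15 in the mutant, with 45.7% of all genes. Without replicate 1 of N2 on E. faecalis, the counts in N2 were 47 higher and 16 lower. The share of all genes called in that fit is not given here, so the lectin share cannot be set against it.

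The N2 and mutant responses share no library, and 26 lectin genes were called higher in both, 63.4% of the N2 list and 81.2% of the mutant list. Over all genes tested 1029 were called higher in both, 34.2% of the N2 list and 65.4% of the mutant list. The 26 lectin genes had a median log2 change of 2.87 in N2 and 2.34 in the mutant. Their summed CPM without clec-63 was 92.7 to 146 in N2 on E. coli, 372 to 718 in N2 on E. faecalis, 93.8 to 113 in the mutant on E. coli and 395 to 552 in the mutant with E. faecalis. The E. coli and E. faecalis libraries did not overlap in this sum in either genotype, which follows from how the 26 were chosen. Another 7 genes were called lower in both, 58.3% of the N2 list and 63.6% of the mutant list, with medians of -2.78 and -1.91, where the shares over all genes were 34.1% and 79.3%. No gene was called in opposite directions, and 60 of the 123 were called in neither genotype.

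**Figure D2:**
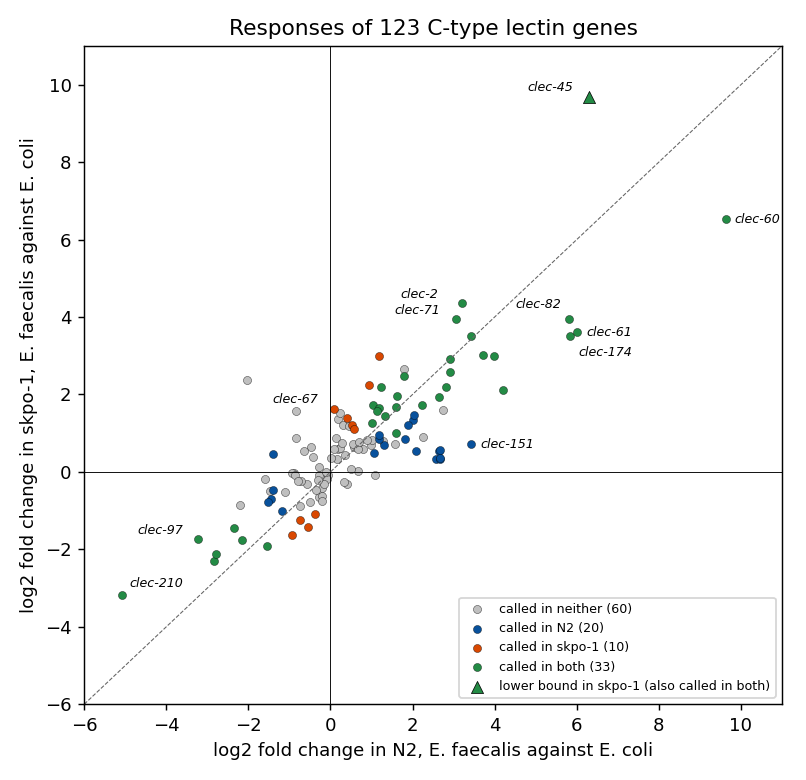
Log2 fold change on E. faecalis against E. coli in N2 (x axis) and in skpo-1 (y axis) for the 123 tested C-type lectin genes, coloured by where they were called, with the line of equal change dashed. The 33 genes called in both genotypes moved the same way in each, to the upper right or the lower left, and clec-45 is a triangle at its lower bound in skpo-1 because it had no count there on E. coli.

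The largest rise in N2 was that of clec-60, a gene known from work on Staphylococcus aureus infection, where its induction depends on the beta-catenin bar-1 and the homeobox gene egl-5. It lies at II:10480043-10481874 (WBcel235, minus strand). Its CPM in N2 was 0.0681, 0.366, 0.387 and 0.246 on E. coli and 59.8, 349 and 305 on E. faecalis. In the mutant it was 0.373, 0.705 and 0.769 on E. coli and 41.1, 104, 38 and 34.7 on E. faecalis. The bacterial groups were far apart in both genotypes, and on E. faecalis the mutant libraries overlapped with N2 only through replicate 1 of N2. The log2 change was 9.63 ± 0.73 (SE) in N2 (edgeR, adjusted p = 8.03e-07) and 6.52 ± 0.66 in the mutant (adjusted p = 4.39e-05). The change in the mutant was smaller by 3.10 ± 0.98 on the log2 scale, which was not called (edgeR, unadjusted p = 0.00616, adjusted p = 0.451). Of the regulators named above, egl-5 rose in both genotypes (log2 1.18, adjusted p = 0.0236, and 1.27, adjusted p = 0.0381), and bar-1 had log2 changes of 0.51 and 0.28 that did not pass the test.

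clec-61 lies on the same strand of chromosome II as clec-60, at II:10488730-10490537, and has been named with it in pathogen responses. On E. coli it was at 0, 0, 0.0775 and 0 CPM in N2 and at 0.0311, 0.235 and 0.419 in the mutant. On E. faecalis it was at 1.46, 1.59 and 1.98 CPM in N2 and at 2.75, 1.85, 1.07 and 4.24 in the mutant. Every E. faecalis library was above every E. coli library. The N2 ratio rests on 2 counts in all on E. coli against 158 on E. faecalis, a ratio of 81.3 with an exact 95% counting interval of 22.1 to 677, and in the mutant the log2 change was 3.61 ± 0.70 (edgeR, adjusted p = 0.00383). The fitted N2 change of clec-61, 6.01, was 5.41 without replicate 2 and 8.40 without replicate 3 of N2 on E. coli, and the mutant change was 2.97 without replicate 1 and 4.25 without replicate 3 of skpo-1 on E. coli.

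clec-45 stood higher on E. faecalis in every mutant library than in any N2 library. It lies at V:7638101-7638657 and no role is given for it here. In N2 it was at 0.0681, 0.0523, 0.0387 and 0.307 CPM on E. coli and 17.5, 2.41 and 4.56 on E. faecalis. In the mutant it had no count in the 3 E. coli libraries and 37.4, 31.4, 35.3 and 34.7 CPM on E. faecalis. The mutant libraries on E. faecalis lay close together and the N2 libraries were spread. In N2 the log2 change was 6.29 ± 0.91 (edgeR, adjusted p = 0.000168), and it was 5.05 without replicate 1 on E. faecalis and 7.16 without replicate 4 on E. coli. The N2 value rests on 9 counts on E. coli in all, and in the mutant the gene was at least 825-fold higher when the E. coli group is set to its floor of 3 counts in all. The level on E. faecalis differed between genotypes by a log2 of 2.10 ± 0.52 that was not called (edgeR, unadjusted p = 0.00225, adjusted p = 0.346). Without replicate 1 of N2 on E. faecalis that difference was 3.32 and was called (adjusted p = 0.00503).

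Among the other strong risers, clec-174 went from 0.0681, 0.105, 0.31 and 0.0615 CPM to 3.27, 13.7 and 8.6 in N2. Mutant values went from 0.373, 0.705 and 0.629 to 2.75, 11.2, 5.71 and 5.9. These are log2 changes of 5.83 ± 0.70 (edgeR, adjusted p = 4.33e-05) and 3.51 ± 0.57 (adjusted p = 0.00178), and neither pair of groups overlapped. The N2 change was 6.55 without replicate 3 of N2 on E. coli. clec-82 went from 0.136, 0.0523, 0.232 and 0.123 CPM to 1.94, 6.77 and 14.1 in N2, and from 0.311, 0.196 and 0.14 to 2.66, 4.89, 2.39 and 4.28 in the mutant. Its log2 changes were 5.82 ± 0.71 and 3.94 ± 0.67 (edgeR, adjusted p = 4.98e-05 and 0.00147), with 5.02 in N2 without replicate 3 on E. faecalis. clec-82 overlaps the gene Y54G2A.7, whose reads could in part be assigned to it. clec-71, next to clec-174 and listed among immune response genes in earlier work, went from 0.749, 0.314, 0.969 and 0.676 CPM to 7.95, 6.16 and 2.44 in N2. Mutant values went from 0.529, 0.391 and 0.909 to 7.02, 9.21, 8.6 and 11.6. The groups were again separate, and the log2 changes were 3.05 ± 0.43 and 3.95 ± 0.45 (edgeR, adjusted p = 0.000334 and 0.00013).

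Further rises followed. clec-75 rose by a log2 of 4.20 ± 0.69 in N2 (0 to 0.136 CPM on E. coli, 0.662 to 2.65 on E. faecalis) and of 2.11 ± 0.61 in the mutant (0.0699 to 0.274 and 0.668 to 1.3), with edgeR adjusted p = 0.000404 and 0.0253. The mutant call for clec-75 was lost without replicate 2 of skpo-1 on E. faecalis (log2 1.84, adjusted p = 0.071) or without replicate 1, 2 or 3 of skpo-1 on E. coli (2.18, 2.41 and 1.82, adjusted p = 0.095, 0.0609 and 0.0699). clec-24 rose by 3.99 ± 0.64 and 2.99 ± 0.62 (adjusted p = 0.000303 and 0.00379). clec-17, another gene from earlier immune response lists, rose by 3.72 ± 0.47 and 3.01 ± 0.46 (adjusted p = 0.000154 and 0.00126), from 0.288 to 1.23 CPM up to 4.37 to 10.9 in N2. clec-172 rose by 3.43 ± 0.44 and 3.50 ± 0.54 (adjusted p = 0.000154 and 0.000731), and overlaps the gene txt-4. For clec-2 the N2 rise was 3.21 ± 0.71 (adjusted p = 0.00229). The mutant ratio of clec-2 was 24.3 from 2 counts against 64, with an exact 95% counting interval of 6.46 to 205, and its fitted log2 change of 4.35 was 3.65 without replicate 1 and 7.08 without replicate 2 of skpo-1 on E. coli.

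**Figure D3:**
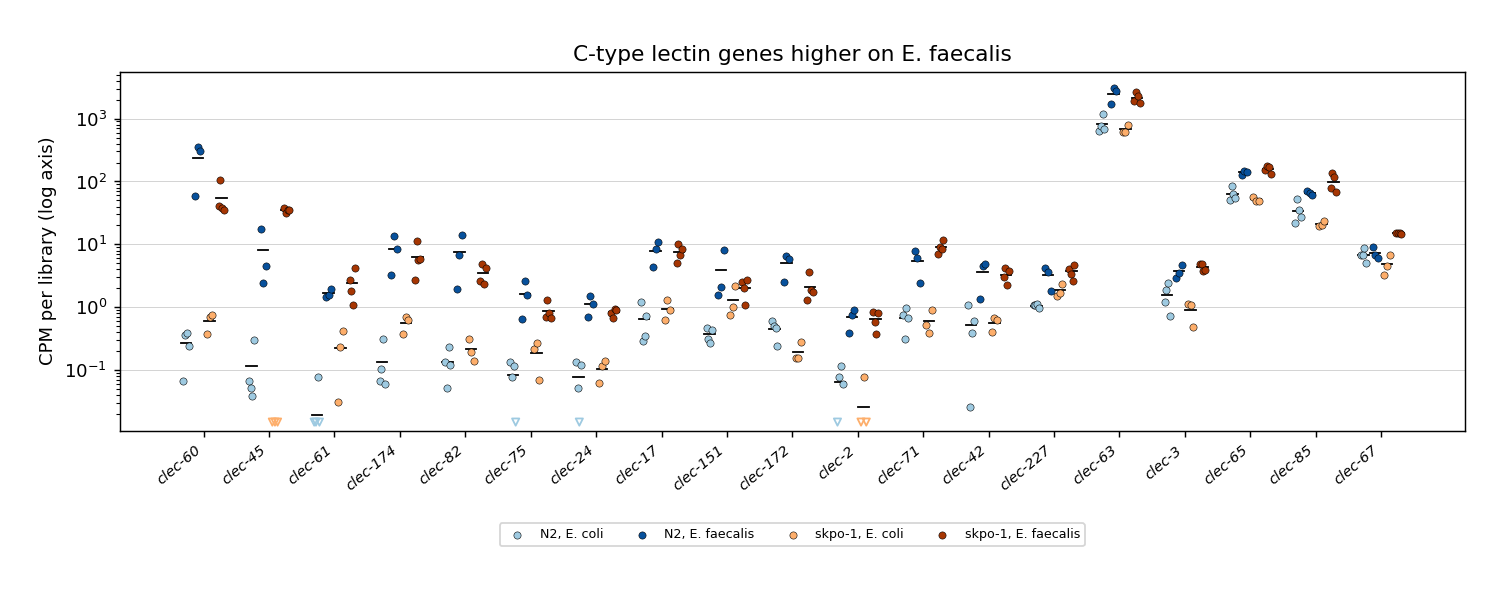
CPM per library on a log axis for the 19 named C-type lectin genes called higher on E. faecalis in at least 1 genotype, with 1 point per library, the group mean as a bar and libraries without counts as open triangles at the foot of the axis. Levels on E. faecalis run from 0.377 CPM for clec-2 to 3011 for clec-63, clec-45 has its highest points in the mutant, and the clec-67 points overlap between bacteria in N2 but not in the mutant.

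The most abundant riser was clec-63, at 642, 763, 1201 and 688 CPM in N2 on E. coli and 1729, 3011 and 2705 on E. faecalis. Mutant libraries were at 610, 621 and 792 and then 1906, 2656, 2254 and 1770. No E. faecalis library reached down to an E. coli library, and the log2 changes of 1.59 ± 0.26 and 1.67 ± 0.26 (edgeR, adjusted p = 0.000728 and 0.00114) differed by 0.08 ± 0.36. clec-65, reported in earlier work on pathogen responses, rose by 1.13 ± 0.17 and 1.58 ± 0.17 (adjusted p = 0.000463 and 6.67e-05), from 51.3 to 84.3 CPM to 127 to 147 in N2 and from 49 to 57.1 to 131 to 174 in the mutant. Both genes lie in a run of 5 lectin genes, clec-62 to clec-66, that starts at II:12893062, with no other gene of the table between them. In that run clec-62 (1.19 and 1.65) and clec-64 (2.92 in both genotypes) were called as well. clec-66, at the end of the run, had log2 changes of 0.09 ± 0.22 in N2 and 0.58 ± 0.22 in the mutant (edgeR, adjusted p = 0.751 and 0.0719). The run was picked out after its values were seen.

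Neighbouring lectin genes did not always respond alike. Among 70 pairs of lectin genes that are direct neighbours, 31 had both genes tested. Of all tested lectin genes 43.1% were called in N2 and 35.0% in the mutant. Neighbouring genes outside the family were not counted, so the pair counts show nothing particular to lectin neighbours. In N2 both genes of 6 pairs were called in the same direction, 1 of the 2 was called in 14 pairs, and neither in 10. In the mutant these numbers were 8, 12 and 11. The remaining pair in N2 went opposite ways: clec-57 fell and clec-227, 80 bases downstream on the same strand of chromosome V, rose by 1.59 ± 0.32 (edgeR, adjusted p = 0.00248), from 0.983 to 1.12 CPM up to 1.82 to 4.28. In the mutant the change of clec-227 was 1.01 ± 0.32 (adjusted p = 0.0411), at the edge of the minimum fold. That call held without replicate 3 of N2 or of skpo-1 on E. faecalis or replicate 3 of skpo-1 on E. coli, and was lost without any of the other 11 libraries (lowest log2 0.87, highest adjusted p = 0.164). It was also lost under median of ratios scaling (0.95), with no filter (adjusted p = 0.0562), with DESeq2 (0.96) and with the authors' factors (0.94). The neighbours clec-3 and clec-2 both rose in both genotypes. clec-3 had log2 changes of 1.23 ± 0.36 and 2.20 ± 0.38 (adjusted p = 0.0164 and 0.00249), and its N2 call was lost without replicate 3 of N2 on E. faecalis (1.03, adjusted p = 0.0746), without replicate 4 of N2 on E. coli (0.99, adjusted p = 0.0422) and with only the compared groups fitted (1.25, adjusted p = 0.0632). Next to the risers clec-71 and clec-75, the genes clec-70 (-2.20 ± 0.92 and -0.85 ± 0.97) and clec-74 (-0.30 ± 0.60 and -0.22 ± 0.56) did not pass the test. clec-70 varied from 0.246 to 7.4 CPM within N2 on E. coli alone.

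Members with a published part in defence against other bacteria were mixed. clec-42, linked to defence against Bacillus thuringiensis, rose from 1.09, 0.0262, 0.387 and 0.615 CPM to 1.37, 4.6 and 4.8 in N2, and from 0.404, 0.666 and 0.629 to 3.06, 4.15, 2.26 and 3.77 in the mutant. The groups did not overlap, with log2 changes of 2.92 ± 0.65 and 2.57 ± 0.66 (edgeR, adjusted p = 0.00446 and 0.02). The mutant call for clec-42 was lost without replicate 1 or 2 of skpo-1 on E. coli (2.35 and 2.73, adjusted p = 0.101 and 0.0652), and the N2 change was 3.53 without replicate 1 of N2 on E. coli. clec-41, studied with it, had log2 changes of -1.11 ± 0.42 and -0.52 ± 0.42 that did not pass the test (adjusted p = 0.0536 and 0.371). clec-49, needed for normal survival on Serratia marcescens, stayed within 15 to 29.9 CPM over all 14 libraries, with log2 changes of 0.16 ± 0.20 and 0.33 ± 0.20. clec-39, its partner in that work, was too rare to test and had no count in 8 of the libraries with a highest value of 0.178 CPM. clec-86 had log2 changes of 1.79 ± 0.78 and 2.65 ± 0.86 (adjusted p = 0.0773 and 0.053), and its N2 libraries on E. coli alone spread from 0.738 to 10.8 CPM.

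A set of members known as targets of the p38 MAP kinase pmk-1 in other infections also differed among themselves. clec-85 was at 22, 52.8, 35.6 and 27.7 CPM in N2 on E. coli and 70.9, 65.7 and 61.5 on E. faecalis. In the mutant it was at 19.6, 20.2 and 23.6 and then 78.1, 137, 116 and 67.7. It rose in the mutant by 2.24 ± 0.28 (edgeR, adjusted p = 0.000223), while the N2 change of 0.93 ± 0.27 (adjusted p = 0.0161) was below the minimum fold although the groups did not overlap. clec-67 was at 6.87, 6.91, 8.68 and 5.04 CPM in N2 on E. coli and 9.01, 6.86 and 6.19 on E. faecalis, and in the mutant it went from 3.26, 4.5 and 6.85 to 15.1, 15.1, 15.2 and 14.6. Its N2 groups overlapped and its mutant groups did not, with log2 changes of 0.09 ± 0.25 (adjusted p = 0.795) and 1.63 ± 0.25 (adjusted p = 0.00119). clec-4 had changes of -0.21 ± 0.41 and -0.74 ± 0.42 that did not pass the test. pmk-1 itself had log2 changes of -0.30 in N2 and -0.06 in the mutant that were not called. Among 15 regulators of immune genes, 5 rose in N2 (egl-5, pqm-1, tir-1, vhp-1 and hlh-30) and 2 in the mutant (egl-5 and pqm-1), and none fell. In the mutant tir-1 (log2 0.75, edgeR adjusted p = 0.0279) and vhp-1 (0.79, adjusted p = 0.0435) missed only the minimum fold. There hlh-30 had a log2 change of 0.05 (adjusted p = 0.933). For the difference of responses 0 of the 15 were called, so the genotypes were not shown to differ. The regulator counts were not tested against the shares of all genes called higher given above.

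The galectins, a separate family of sugar-binding proteins that recognise galactosides, give a point of comparison. Of 12 lec genes tested, lec-2 and lec-7 rose in N2 (log2 1.67 and 2.05, edgeR adjusted p = 0.00382 and 0.00499), lec-7 and lec-11 rose in the mutant (1.86 and 1.71, adjusted p = 0.0232 and 0.000437), and none fell in either.

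A group of 7 genes fell in both genotypes. clec-209 had the highest levels of them, at 144, 316, 285 and 164 CPM in N2 on E. coli and 60.2, 34.4 and 38.9 on E. faecalis. Mutant values went from 205, 206 and 155 to 63.7, 82.8, 80 and 51.5. The groups did not overlap, and the log2 changes were -2.35 ± 0.28 and -1.44 ± 0.28 (edgeR, adjusted p = 0.000157 and 0.0039). The annotation gives the symbol clec-209 to a second gene of identical length, 1257 bases, on chromosome V that is not in the table. Their sequences were not compared, so whether reads of both genes can be told apart is not known. clec-97 fell from 13.6, 18.8, 9.65 and 12.4 CPM to 1.77, 0.884 and 1.74 in N2, and from 14.4, 10.6 and 13.2 to 3.64, 3.27, 4.96 and 3.42 in the mutant. Both falls separated the groups, by -3.22 ± 0.29 and -1.74 ± 0.28 (adjusted p = 1.41e-05 and 0.00108). Its overlapping neighbour clec-98 had no count in any library.

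The other falls were of transcripts of mixed levels. clec-139 fell by 2.83 ± 0.53 on the log2 scale in N2 and by 2.31 ± 0.59 in the mutant (edgeR, adjusted p = 0.00186 and 0.0129), from 1.02 to 3.38 CPM down to 0.122 to 0.353 in N2. The mutant call for clec-139 was lost without replicate 1 of skpo-1 on E. coli (-2.17, adjusted p = 0.0634). clec-190 fell by 2.78 ± 0.64 and 2.11 ± 0.62 (adjusted p = 0.00775 and 0.0309), but its N2 groups overlapped, since replicate 3 on E. coli was at 3.14 CPM and replicate 1 on E. faecalis at 3.53. Without the latter library the N2 change was -4.07. Its mutant call was lost without any 1 of the 4 skpo-1 libraries on E. faecalis or without replicate 1 or 3 of skpo-1 on E. coli (adjusted p from 0.0514 to 0.0903). clec-43 fell by 2.16 ± 0.38 and 1.75 ± 0.37 (adjusted p = 0.00143 and 0.00565), from 2.04 to 3.06 CPM down to 0.516 to 0.751 in N2. clec-5 fell by 1.55 ± 0.41 and 1.91 ± 0.41 (adjusted p = 0.0122 and 0.00696), from 9.67 to 19.4 CPM down to 1.46 to 7.82 in N2, and its N2 call was lost with only the compared groups fitted (-1.53, adjusted p = 0.0553). Without replicate 3 of N2 on E. faecalis its N2 change was -2.15. clec-223 was called lower in the mutant, -1.63 ± 0.45 (90.1 to 143 CPM down to 27.9 to 45, adjusted p = 0.0222), and had -0.94 ± 0.44 in N2 (adjusted p = 0.115). That mutant call was lost without replicate 4 of skpo-1 on E. faecalis or replicate 1 or 2 of skpo-1 on E. coli (-1.50, -1.62 and -1.46, adjusted p = 0.0588, 0.0736 and 0.082). Its neighbour clec-222 was not called (-0.94 ± 0.54 and -0.03 ± 0.54).

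The matrix genes of high level had smaller shifts. clec-87 was at 1069 to 1337 CPM in N2 on E. coli, and 711 to 893 with E. faecalis, and at 959 to 1316 and 854 to 1054 in the mutant. Its log2 changes of -0.57 ± 0.17 (edgeR, adjusted p = 0.0182) and -0.32 ± 0.17 (adjusted p = 0.176), and those of clec-88 (-0.72 ± 0.20 and -0.23 ± 0.20) and clec-91 (-0.79 ± 0.20 and -0.23 ± 0.20), were below the minimum fold. Markers of oocytes and embryos, where chondroitin proteoglycans of the egg are made, had summed levels of 5867 to 13356 CPM in N2 on E. coli, and 6346 to 9407 with E. faecalis. In the mutant these sums were 10011 to 13896 and 5705 to 9753, with none of the 10 genes called, and their part in the clec-87 and clec-88 values was not tested. clec-50 (-0.28 ± 0.16 and 0.13 ± 0.16) and clec-1 (-0.89 ± 0.30 and -0.03 ± 0.30) were not called either.

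Genes called in 1 genotype alone were not shown to differ between genotypes. The 15 genes called higher in N2 alone had log2 changes of 1.05 to 3.43 there and 0.33 to 1.47 in the mutant, all positive, and 4 of them had an unadjusted p under 0.05 in the mutant, beside 30.5% of the 1979 genes of any kind called higher in N2 alone. Their summed CPM was 42.3 to 60.6 in N2 on E. coli, and 120 to 171 with E. faecalis, against 55.8 to 69.3 and 104 to 132 in the mutant. The separation in N2 follows from how the 15 were chosen. The 6 called higher in the mutant alone, clec-67 and clec-85 among them, had changes of 1.11 to 2.98 there and 0.09 to 1.18 in N2. Of the 5 called lower in N2 alone, 4 had the same sign in the mutant, and all 4 called lower in the mutant alone had the same sign in N2.

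When the difference between the responses was tested directly, 0 lectin genes and 0 of all genes tested were called (edgeR, smallest adjusted p of a lectin gene = 0.44). At an unadjusted p under 0.05 there were 21 lectin genes, 17.1%, against 7.75% of all genes. The smallest unadjusted p were 0.000735 for clec-67 (difference 1.54 ± 0.36), 0.00249 for clec-97 (1.48 ± 0.40) and 0.00366 for clec-151 (-2.72 ± 0.80). clec-151 was at 0.476, 0.314, 0.271 and 0.43 CPM in N2 on E. coli and 1.59, 2.13 and 8.01 on E. faecalis, and at 0.746, 1.02 and 2.17 and then 2.49, 2.01, 1.07 and 2.67 in the mutant. Its N2 rise of 3.43 ± 0.59 was called (adjusted p = 0.001) and the mutant value of 0.71 ± 0.54 was not (adjusted p = 0.354). Without replicate 3 of N2 on E. faecalis, at 8.01 CPM, the N2 rise was 2.36 and the difference of responses -1.65 (adjusted p = 0.839). With DESeq2's Wald test 4 lectin genes passed for the difference, namely clec-45 (5.74, adjusted p = 0.0384), clec-67 (1.55, 0.0143) and clec-97 (1.45, 0.0499) upwards and clec-60 (-3.25, 0.0342) downwards. The share of all genes that passed with DESeq2 is not given here, so this count shows nothing particular to lectin genes.

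Of 15 sperm markers, 13 were called higher in the N2 response and 0 in that of the mutant. For the difference of responses 0 of the 15 were called, so the genotypes were not shown to differ. The summed CPM of these markers was 25.3 to 38.3 in N2 on E. coli, 70 to 211 in N2 on E. faecalis, 39.1 to 111 in the mutant on E. coli and 40.2 to 103 in the mutant with E. faecalis. Replicate 3 of N2 on E. faecalis held the highest value of 11 of the 15 lectin genes called higher in N2 alone. The share over all genes is not given here. Intestinal markers had summed levels of 3921 to 7038 CPM in N2 on E. coli, and 4976 to 5964 with E. faecalis, with 2 of 9 called higher, and 3794 to 4050 and 4218 to 6375 in the mutant, with 1 called. Neuronal markers summed to 288 to 322 and 426 to 591 in N2, with 3 of 8 higher, and to 294 to 312 and 437 to 491 in the mutant, with 0. The median log2 change of the neuronal markers was 0.91 in N2 and 0.88 in the mutant, so the unlike counts turned on the minimum fold. Hypodermal markers summed to 749 to 1565 and 377 to 627 in N2, with 3 of 8 higher and 1 lower, and to 1002 to 1784 and 323 to 800 in the mutant, with 1 lower. No marker was at 0 in a whole group. The part of sperm, intestine, neurons or hypodermis in the lectin changes was not tested.

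The second question was which lectin genes differ by genotype on the same bacterium. On E. coli 2 of 123 lectin genes were higher in the mutant and 0 were lower, 1.63% against 0.644% of all genes tested (0.567% higher and 0.0765% lower). On E. faecalis 3 were higher and 0 lower, 2.44% against 0.108% (0.0638% higher and 0.0446% lower). At an unadjusted p under 0.05 there were 34 on E. coli, 27.6% against 9.40% of all genes, and 26 on E. faecalis, 21.1% against 7.74%. The median log2 difference of the lectin genes was -0.09 on E. coli and 0.02 on E. faecalis, beside -0.04 and -0.02 for all genes. The genotypes did not overlap for 26 lectin genes on E. coli, with 8.43% of all genes, and for 18 on E. faecalis, with 8.97%. DESeq2's Wald test called 6 lectin genes higher on E. coli, and 7 higher and 1 lower (clec-60, log2 -2.12, adjusted p = 0.0134) on E. faecalis. For this and the other alternative fits of this paragraph the share of all genes called is not given. Their counts therefore show nothing particular to lectin genes. With only the compared groups fitted, 0 were called on E. faecalis. The result on E. faecalis also turned on single N2 libraries: without replicate 2 of N2 on E. faecalis 0 genes were called, and without replicate 1 there were 5 higher, with clec-45 (3.32) and clec-74 (2.54) added, and 4 lower, namely clec-4 (-1.49), clec-10 (-1.09), clec-15 (-4.40) and clec-60 (-2.59). Of the tissue markers, rol-6 of the hypodermis was called higher in the mutant on E. coli and no other marker was called between genotypes.

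clec-210 was higher in the mutant on both bacteria and fell on E. faecalis in both genotypes. It lies at V:3118377-3120323 and overlaps the chemoreceptor gene srt-56. Its CPM in N2 was 1.5, 2.01, 1.67 and 3.01 on E. coli and 0.132, 0.061 and 0 on E. faecalis. In the mutant it was 11.3, 12.8 and 8.81 on E. coli and 0.977, 0.908, 1 and 1.97 on E. faecalis. None of the 4 groups compared in pairs by bacterium or by genotype overlapped. The mutant level was higher by a log2 of 2.42 ± 0.39 on E. coli (edgeR, adjusted p = 0.00998) and 4.33 ± 0.73 on E. faecalis (adjusted p = 0.00546), and the fall on E. faecalis was -5.07 ± 0.73 in N2 and -3.17 ± 0.40 in the mutant (adjusted p = 7.58e-05 and 0.000169). N2 on E. faecalis held 5 counts of clec-210 in all. Without replicate 1 or 3 of that group the N2 fall was -5.94 or -4.40 and the genotype difference on E. faecalis 5.18 or 3.66. The E. coli call was lost without replicate 2 of skpo-1 on E. coli (2.28, adjusted p = 0.0571), and the E. faecalis call without replicate 2 of N2 on E. faecalis (4.39, adjusted p = 0.0745) and when only the compared groups were fitted (4.35, adjusted p = 0.113).

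clec-169, at IV:1261324-1264622, was higher in the mutant on both bacteria. It was at 2.31, 2.62, 1.74 and 3.26 CPM in N2 on E. coli and 15.5, 15.5 and 29.7 in the mutant. On E. faecalis it was at 0.839, 2.71 and 2.12 CPM in N2 and 11.1, 8.46, 5.78 and 12.2 in the mutant. The genotypes did not overlap on either bacterium, with log2 differences of 3.03 ± 0.38 (edgeR, adjusted p = 0.00149) and 2.30 ± 0.38 (adjusted p = 0.0406). The E. coli call held without each library in turn. The E. faecalis call was lost without replicate 2 or 3 of N2 on E. faecalis (2.64 and 2.38, adjusted p = 0.0905 and 0.237), replicate 1, 2 or 4 of skpo-1 on E. faecalis (2.21, 2.34 and 2.14, adjusted p = 0.129, 0.092 and 0.12), replicate 1 or 3 of N2 on E. coli or replicate 1 or 2 of skpo-1 on E. coli (2.30 in each, highest adjusted p = 0.0705). It was also lost with only the compared groups fitted (2.32, adjusted p = 0.151). In the mutant clec-169 fell on E. faecalis by 1.10 ± 0.36 on the log2 scale (adjusted p = 0.045), and that call was lost without any of the 7 skpo-1 libraries, without replicate 3 of N2 on E. faecalis or without replicate 1 of N2 on E. coli (highest adjusted p = 0.173).

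clec-57, at V:14469231-14472448, was at 6.94, 10.7, 6.16 and 7.99 CPM in N2 on E. coli and 13, 15.3 and 18.4 in the mutant. On E. faecalis it was at 2.91, 3.6 and 1.79 CPM in N2 and 9.9, 7.39, 7.72 and 11 in the mutant. The mutant was above N2 in every library on both bacteria, and the log2 difference was 0.96 ± 0.27 on E. coli, not called (edgeR, adjusted p = 0.15), and 1.70 ± 0.27 on E. faecalis (adjusted p = 0.0293). The E. faecalis call was lost without replicate 2 or 3 of N2 on E. faecalis (1.94 and 1.46, adjusted p = 0.0538 and 0.191), without any 1 of the 4 mutant libraries on E. faecalis (adjusted p from 0.0535 to 0.103) or without replicate 2 of skpo-1 on E. coli (1.71, adjusted p = 0.0705), and with only the compared groups fitted (1.73, adjusted p = 0.124). In N2 clec-57 fell on E. faecalis by 1.53 ± 0.27 on the log2 scale (adjusted p = 0.00158), and in the mutant it had -0.79 ± 0.27 (adjusted p = 0.048), below the minimum fold.

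**Figure D4:**
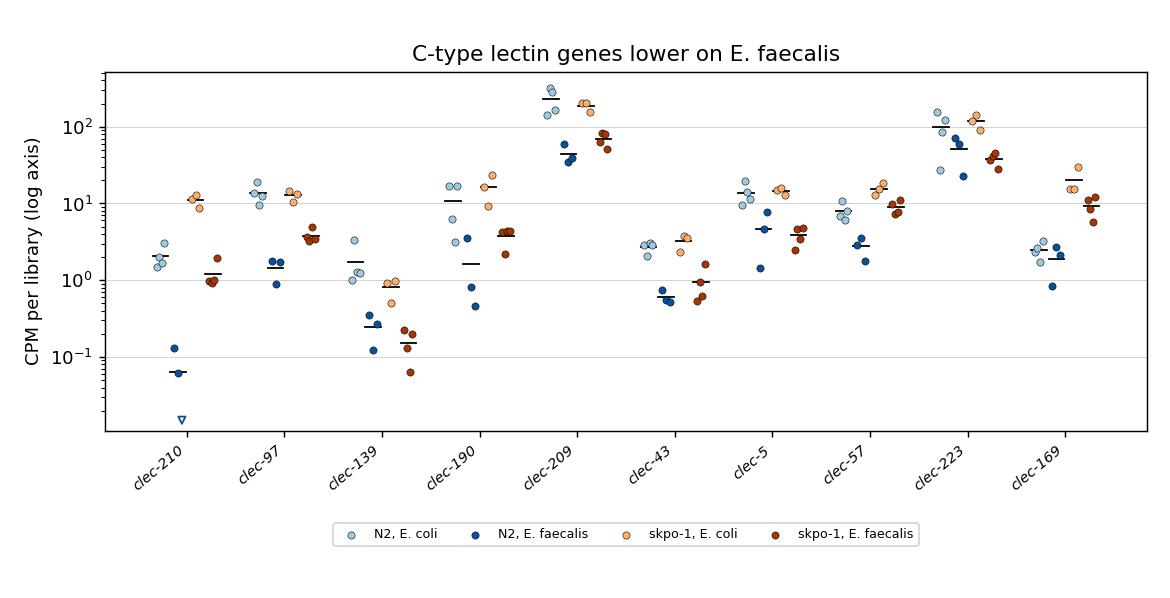
CPM per library on a log axis for the 10 named C-type lectin genes called lower on E. faecalis in at least 1 genotype, with 1 point per library, the group mean as a bar and a library without counts as an open triangle. For clec-210, clec-57 and clec-169 the mutant points lie above the N2 points on the same bacterium, and clec-209 and clec-223 have the highest levels.

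A pair of rare genes, chosen after their values were seen, had the next smallest unadjusted p between genotypes on E. coli. clec-9 was at 0 to 0.0681 CPM in N2 on E. coli, and 0 to 0.109 with E. faecalis, and at 0.311 to 0.489 and 0.311 to 1.61 in the mutant. clec-76 was at 0.116 to 0.613 and 0.221 to 1.19 CPM in N2, and at 1.21 to 2.73 and 1.44 to 3.14 in the mutant. For both genes the genotypes did not overlap on either bacterium. The N2 libraries of clec-9 were near 0, and it could pass the filter through the mutant groups, where it is high. The lack of overlap and the log2 differences of clec-9 therefore rest on few N2 counts. The log2 differences were 3.42 ± 1.08 and 3.36 ± 0.85 for clec-9 (edgeR, adjusted p = 0.12 and 0.186) and 2.46 ± 0.59 and 1.29 ± 0.54 for clec-76 (adjusted p = 0.0708 and 0.639), and none was called. Without replicate 1 of N2 on E. faecalis, clec-76 was called on E. coli (2.46, adjusted p = 0.0417), and without replicate 4 of skpo-1 on E. faecalis so was clec-9 (3.42, adjusted p = 0.0362).

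Some members of published interest or next to a responding gene were too rare for a test. clec-38, which acts in axon migration guided by netrin, reached 0.152 CPM at most and clec-6 reached 0.369. clec-32 reached 0.274 CPM, clec-96 0.196 and clec-138 0.152.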

How the data were processed

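The deposited table holds estimated counts per gene for 14 libraries, which the authors rounded to whole numbers. According to the methods, the authors trimmed reads with Trimmomatic 0.36, quantified them with Salmon 1.2.1 on the WBcel235 transcriptome and summed them per gene. A second deposited table holds the authors' normalized signal, the counts divided by DESeq2 1.26.0 factors that differ by gene and library, and served only to obtain those factors for an alternative fit. How reads of overlapping genes were divided rests on Salmon's estimates, and strand settings are not given in the sources used here. 40 lectin genes overlap another coding gene, and clec-15, clec-209 and clec-249 share their symbol with a second gene that is not in the table. Besides the overlaps given in the results, those 40 include the named genes clec-3, clec-85, clec-86, clec-87, clec-88, clec-91, clec-138, clec-139 and clec-151.

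Members are the genes named clec and a number. Gene names were matched for 19793 of 21982 identifiers and positions for 21896 (Ensembl release 115, WBcel235). Members, gene lists and the rule for named genes were chosen with earlier results of these data known. Named genes were the 8 largest rises and falls among those called in each response, all called between genotypes, the 3 smallest p for the difference of responses, the 6 highest per coding length, genes with a published role, and neighbouring members of called genes. Marker lists for 8 tissues, 12 galectins and 15 immune regulators were given by counts. Results for body wall muscle, pharynx and coelomocyte markers were no calls in any comparison.

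Counts were fitted with edgeR 4.0.16 in R 4.3.3 (quasi-likelihood, trimmed mean of M-values, all 14 libraries, 1 coefficient per group), keeping 15685 genes by filterByExpr (count minimum 10, total minimum 15). Adjusted p are Benjamini-Hochberg values over all genes tested, and n is 4 and 3 for N2 and 3 and 4 for skpo-1 (E. coli first). Counting intervals are exact (Clopper-Pearson) at 95% and, like the floor of 3 counts, cover counting error only. Alternatives were median of ratios scaling, no filter, DESeq2 1.42.0, only the compared groups, the replicate number as a block, the authors' factors as offsets, an adjusted p of 0.01, no minimum fold, and each library left out. Libraries of a group are labelled biological replicates, and each of 18 pairs within a group differed by more than sampling noise (7.23 to 387 times the chi-square value that noise alone gives). The fit was tested on simulated data.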

Additional observations from a re-analysis of the deposited data

Results flagged for a closer look

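Of 84 groups of 4 libraries examined for the 42 named and tested lectin genes, 7 had 1 library set off from the other 3 by a gap past Dixon's critical value for 4 samples at 95%, and chance alone sets off about 1 in 20 groups. In N2 on E. coli these were replicate 4 for clec-45 (0.307 CPM, the highest), replicate 3 for clec-61 (0.0775, the highest, the others at 0) and replicate 2 for clec-139 (3.38, the highest). In the mutant on E. faecalis replicate 2 was the highest for clec-60 (104 CPM) and the lowest for clec-190 (2.2), and replicate 4 was the lowest for clec-67 (14.6, with the others at 15.1 to 15.2) and the highest for clec-210 (1.97). Each of these values lies on its group's side of the bacterial difference described above.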

How the results depend on the processing

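The 60 results followed for named genes were those called above and the 3 smallest unadjusted p for the difference of responses. Those 3 were not called. Of the 60, 45 kept their status, called or not called, in every alternative that was run, and 13 lost a call in at least 1. A call was gained by 2 (the difference of responses of clec-67 and clec-97, with DESeq2) and 0 reversed. Uncalled results outside the 60 could also gain a call, as the differences of responses of clec-45 and clec-60 did with DESeq2. At an adjusted p of 0.01, 7 lectin genes fell in N2 instead of 12, 6 fell in the mutant instead of 11, and 1 in place of 3 was higher in the mutant on E. faecalis. With DESeq2, 6 in place of 2 were higher in the mutant on E. coli, 7 in place of 3 on E. faecalis with 1 lower, and 3 higher and 1 lower in place of 0 for the difference of responses. With only the compared groups fitted, 0 were called on E. faecalis between genotypes. Leaving out 1 library gave 33 to 47 rises and 10 to 16 falls in N2, 23 to 37 rises and 7 to 12 falls in the mutant (7 without replicate 1 of skpo-1 on E. coli), 1 to 3 genes higher in the mutant on E. coli (1 without replicate 2 of skpo-1 on E. coli), and 0 to 5 higher and 0 to 4 lower on E. faecalis. On E. faecalis the 5 higher and 4 lower came without replicate 1 of N2 on E. faecalis, the 0 without replicate 2, and 1 without replicate 3 of that group, replicate 1, 2 or 4 of skpo-1 on E. faecalis or replicate 2 of skpo-1 on E. coli. For the genotype differences on E. coli downwards and for the difference of responses leaving out any 1 library gave 0. The cause of these shifts was not tested. The fits without a library have fewer samples. Shares over all genes are not given for any alternative, so these counts show nothing particular to lectin genes.

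The replicate numbers are not stated to pair the samples. The deviations of same-numbered libraries from their group means correlated above 0.1 in 9 of 19 pairs (-0.527 to 0.245). Differently numbered libraries were not compared, so these values cannot decide whether the numbers pair samples. With the replicate number as a block, 40 lectin genes rose and 13 fell in N2, 31 rose and 10 fell in the mutant, 2 were higher in the mutant on E. coli, and 1 in place of 3 was higher on E. faecalis (clec-210, log2 4.03, edgeR adjusted p = 0.017). The block ended the E. faecalis genotype calls of clec-57 (1.68, adjusted p = 0.12) and clec-169 (2.20, adjusted p = 0.201), and the mutant response calls of clec-42 (2.48, adjusted p = 0.0543), clec-169 (-1.23, adjusted p = 0.0583) and clec-227 (0.91, adjusted p = 0.104). It ended no other call of a named gene.

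Depth limits the rarest members: 114 had no test after the filter. Of 36 tested members with a mean under 1 CPM, 16 were called in at least 1 response. Such rare genes could pass the filter through the group where they are high. The count is therefore no measure of how often rare members respond. Without the filter 44 lectin genes rose in N2.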
